A study of Mus musculus with 15 samples.

Results

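Sorted 105K tumor cells labelled sh-B7-H3 (2) were compared with sorted 105K tumor cells labelled sh-NC. The comparison used 6 of the 15 RNA-seq libraries of the series, 3 in each group, chosen by their sample labels. 105K cells are a renal tumor line from a Tsc2+/− mouse and were labelled Tsc2-deficient in every group, the control included. The cells had been transduced as puromycin-selected pools with a non-targeting shRNA (sh-NC) or with 1 of 2 shRNAs against B7-H3, called (1) and (2), and grown as subcutaneous tumors in wild-type C57BL/6J mice, which the methods give as male. Tumors were dissociated, non-tumor cells were removed with magnetic beads, and the unlabelled cells were kept. The methods give 3 biological samples in each group. The other 9 libraries were 3 of sorted cells labelled sh-B7-H3 (1) and 6 of bulk tumors. Levels are FPKM, a count of fragments relative to gene length and library size. They were put on a common scale here by 1 factor per library and are called scaled FPKM. Values given in 3s are replicates 1, 2 and 3 in that order. Genes are listed by their symbols in capitals, as the deposited table gives them.

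B7-H3, encoded by Cd276, is a cell surface protein of the B7 family of immune checkpoint ligands. Interferons act through surface receptors, Janus kinases and STAT proteins. They switch on IRF transcription factors and, after them, antiviral effectors, guanylate-binding proteins, chemokines and the machinery that shows peptides to T cells on MHC molecules. MHC class II is made mainly by antigen-presenting cells, and many epithelial and tumor cells make it only after interferon gamma has induced its master coactivator, Ciita. Kidney tubule cells are epithelial, and after injury they can switch on genes such as Havcr1, Lcn2 and Vcam1.

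Sh-B7-H3 (2) replicate 1 stood apart from the other 8 sorted libraries in markers of host cells. The 10 leukocyte markers summed to 353 scaled FPKM in it, against 4.86 to 8.80 in the sh-NC libraries and 6.74 and 6.87 in the other sh-B7-H3 (2) libraries. The macrophage marker LYZ2 was at 391, 1.35 and 1.37 in the sh-B7-H3 (2) libraries and at 6.00, 2.11 and 5.46 with sh-NC. C1QA, a complement chain that macrophages make, was at 108, 0.874 and 0.863 with sh-B7-H3 (2) and at 2.73, 1.38 and 1.81 with sh-NC, so replicates 2 and 3 did not carry the signal of replicate 1. T cell markers summed to 25.8 in that library and to 0.551 to 2.17 in the other 8 sorted libraries, cytotoxic lymphocyte markers to 45.1 against 1.86 to 5.12, and B cell markers to 11.4 against 0.176 to 1.00. Replicates 2 and 3 were also above the controls in the T cell list (1.92 and 2.17 against 0.551 to 0.954) and in the cytotoxic list (4.79 and 5.12 against 1.86 to 1.94), in which CCL5 made up most of the sum. Dendritic cell markers summed to 14.8 against 1.29 to 2.18, neutrophil markers to 11.1 against 0.117 to 2.24, mast cell markers to 16.6 against 0.152 to 1.58, and endothelial markers to 28.4 against 0.621 to 1.90. Erythroid markers summed to 17.5 against 0.674 to 2.94, and 4 Y-linked genes, DDX3Y, EIF2S3Y, KDM5D and UTY, to 4.88 against 0.277 to 0.887. The macrophage list summed to 878 in replicate 1, to 132 in replicates 2 and 3, to 64.3 to 69.4 with sh-NC and to 145 to 167 with sh-B7-H3 (1). Skeletal muscle markers did not follow this pattern, with 52.0 in replicate 1 and 41.2 to 111 in the other 8. Each call against sh-NC below therefore rests on fits with and without replicate 1. A gene is called changed, or held, only if it passed an adjusted p of 0.05 in both fits in 1 direction. The direct test between the shRNAs kept replicate 1, and named genes that lost that call without it are given there. The part of the host cell RNA in the replicate 1 values was not tested.

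**Figure D1:**
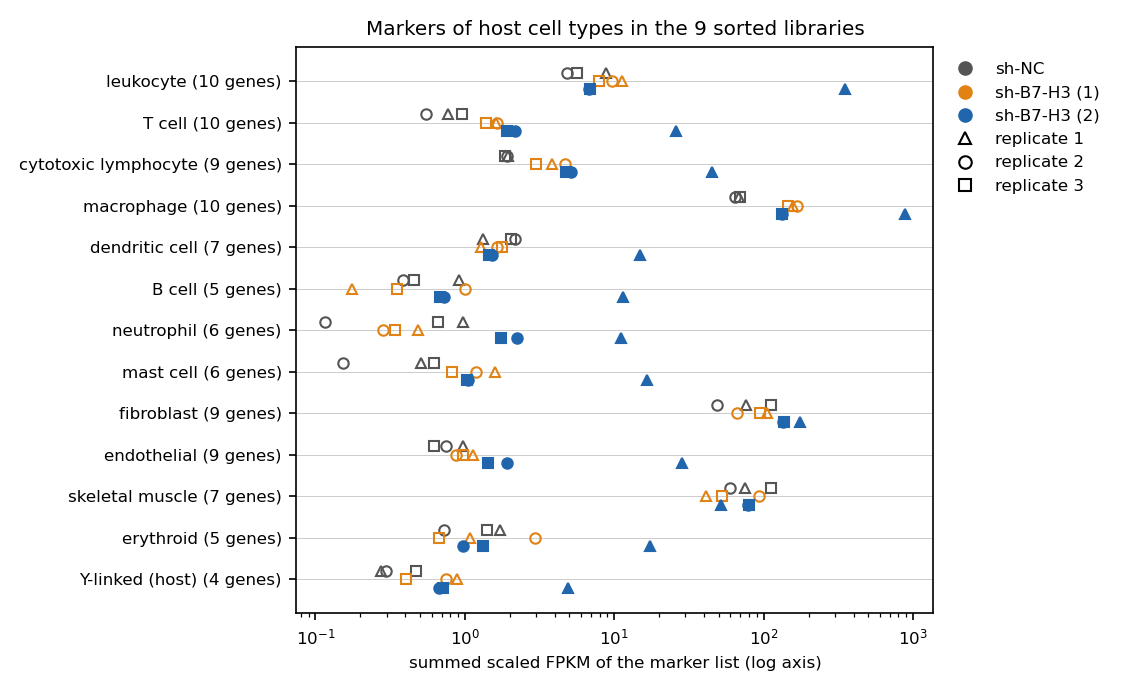
Summed scaled FPKM of each marker list (x axis, log scale) in the 9 sorted libraries, 1 symbol per library, with the number of genes in brackets. Filled blue triangles, sh-B7-H3 (2) replicate 1, lie to the right of all other sorted libraries for every list apart from skeletal muscle, as with 353 against 4.86 to 11.3 for leukocytes.

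Some libraries also differed in how closely they resembled their group. Sh-B7-H3 (2) replicates 2 and 3 had a robust SD of log2 ratios of 0.13 over 5670 genes with at least 10 scaled FPKM, the smallest of the 15 pairs of replicates in the series, whose other values ran from 0.19 to 0.63. That SD was 0.132 for the 3367 genes at 10 to 30 scaled FPKM and 0.120 for the 1663 at 30 to 100. It was 0.115 for the 450 genes at 100 to 300 and 0.127 for the 190 at 300 or more, so it changed little with the level. They were kept as 2 libraries, and counts with their mean as 1 library are given as well. Sh-NC replicate 1 differed from replicates 2 and 3 with SDs of 0.45 and 0.63. The summed FPKM was 435533 to 751234 with sh-NC and 494043 to 540923 with sh-B7-H3 (2), and 1 short RNA gene, MIR6236, held 51.6% of sh-NC replicate 2. Read totals are not given. Depth relative to sh-NC replicate 1, from the spacing of the lowest values, was 0.803 and 0.857 in the other sh-NC libraries and 0.574 to 0.684 with sh-B7-H3 (2).

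Cd276, the target of the shRNA, was not lower in the libraries labelled sh-B7-H3 (2). Its scaled FPKM was 34.0, 20.0 and 17.3 with sh-NC and 23.3, 25.4 and 25.7 with sh-B7-H3 (2), a mean of 23.8 ± 8.97 (SD, n = 3) against 24.8 ± 1.30 (SD, n = 3). The 3 values with sh-B7-H3 (2) lay inside the range of the sh-NC libraries. The log2 fold change was 0.12 (standard error 0.23, adjusted p = 0.775) and 0.16 without replicate 1 (adjusted p = 0.756), and an exact two-sided permutation test gave p = 0.7, where 0.1 is the smallest p that 3 against 3 libraries allow. Without sh-NC replicate 1, the highest control, the log2 fold change was 0.40 (adjusted p = 0.0363), and without sh-NC replicate 3, the lowest, it was -0.071. In cells labelled sh-B7-H3 (1) the values were 7.29, 14.0 and 11.5, and the direct log2 difference, (2) minus (1), was 1.16 (standard error 0.20, adjusted p = 0.0277, exact two-sided permutation p = 0.1). That difference passed in 9 of 15 alternatives and was lost, among others, with replicates 2 and 3 averaged (adjusted p = 0.0987), and its highest adjusted p with 1 library left out was 0.104. The paper reports that B7-H3 was stably knocked down in this tumor line, and that tumors grew less with each shRNA. Its methods describe the shRNAs as directed at distinct regions of the mRNA. RNA does not show protein, and which region sh-B7-H3 (2) targets is not known from the files. Whether B7-H3 protein was lower in the cells of these libraries was not tested. The group is named by its label throughout.

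Across all genes, 2150 of 11243 tested genes (19.1%) passed with 6 libraries, 1313 higher and 837 lower in sh-B7-H3 (2). Without replicate 1, 1727 passed, 1121 higher and 606 lower. Held were 1608 genes (14.3%), of which 1043 were higher (9.28%) and 565 lower (5.03%), and none was called in opposite directions by the fits. Of the 1043 held higher, 265 were under 1 scaled FPKM in every sh-NC library, so they reached the filter only through the libraries in which they were high, and their calls were in part fixed by it. The same holds for 40 of the 565 held lower, which were under 1 scaled FPKM in every sh-B7-H3 (2) library and reached the filter only through sh-NC. Of the held genes, 655 rose and 224 fell by more than 1 on the log2 scale. The libraries of the groups did not overlap in 1607 of the 1608 held genes, so such separation sets no held gene apart. The median log2 fold change of all tested genes was 0.01, and 0.02 without replicate 1. The 6-library count depended on single libraries, with 3650 genes without sh-NC replicate 1, 1284 without sh-NC replicate 2, 1384 without sh-B7-H3 (2) replicate 2 and 1301 without replicate 3. With sh-B7-H3 (2) replicates 2 and 3 averaged into 1 library, 1361 genes passed, and 1319 of the held genes were among them in their direction. The scaling also set the balance of directions: 61.1% of the calls were higher, against 83.2% (1608 higher, 325 lower) with FPKM as deposited, where the median of all genes moved to 0.21, and 48.9% (1124 higher, 1176 lower) with quantile normalization.

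**Figure D2:**
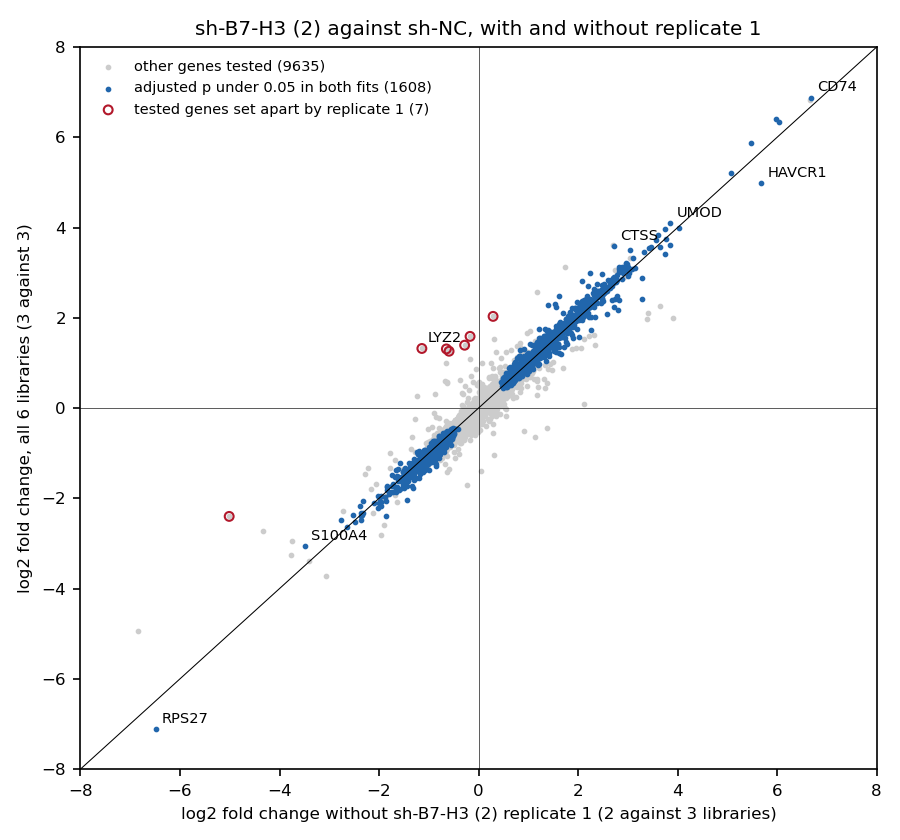
Log2 fold change of each tested gene, sh-B7-H3 (2) against sh-NC, with all 6 libraries (y axis) and without sh-B7-H3 (2) replicate 1 (x axis), where the line marks equal values. The 1608 held genes (blue) follow the line, while 7 tested genes with the widest gap between replicate 1 and replicates 2 and 3 (red rings), LYZ2 among them, leave it.

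The genes with the largest increases were led by MHC class II. CD74, the invariant chain that escorts class II molecules to the endosome, had 22.3, 8.30 and 7.96 with sh-NC and 1917, 1253 and 1316 with sh-B7-H3 (2). Every sh-B7-H3 (2) library was far above every control, and replicate 1 was the highest of them. The log2 fold change was 6.88 (standard error 0.37, adjusted p = 5.5e-05) and 6.69 without replicate 1 (adjusted p = 0.0002). The class II chains followed. H2-AA, an alpha chain, had 3.91, 1.81 and 2.08 with sh-NC and 522, 212 and 229 with sh-B7-H3 (2), with a log2 fold change of 6.40 (standard error 0.36, adjusted p = 5.5e-05) and 5.99 without replicate 1 (adjusted p = 0.000118). H2-AB1, its beta partner, had 5.08, 1.65 and 2.11 with sh-NC and 455, 242 and 243 with sh-B7-H3 (2) and a log2 fold change of 6.35, or 6.05 without replicate 1. H2-EB1, the beta chain of the other class II molecule, had 2.27, 0.456 and 0.674 with sh-NC and 206, 84.8 and 91.5 with sh-B7-H3 (2) and a log2 fold change of 5.88, or 5.48 without replicate 1. In replicates 2 and 3 H2-AA and H2-AB1 stood at 212 to 243 scaled FPKM. The leukocyte marker sums of those libraries, 6.74 and 6.87, lay within the 4.86 to 8.80 of the controls, but their macrophage list sums of 132 were above the 64.3 to 69.4 of the controls, and their T cell and cytotoxic sums were above the controls too. CSF1R, the macrophage growth factor receptor, was at 23.3, 7.75 and 7.32 with sh-B7-H3 (2) and at 1.30, 0.818 and 0.567 with sh-NC. PTPRC, which encodes the leukocyte antigen CD45, was at 12.04, 0.120 and 0.0660 with sh-B7-H3 (2) and at 0.145, 0.0168 and 0.0440 with sh-NC. The part of host cell RNA in the class II values was not tested.

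The 3 tested class II chains were held, all above the controls, at a median log2 fold change of 6.35 (5.99 without replicate 1), while the 4th chain listed, H2-EB2, was below the filter. Of 11 tested genes for class II loading and regulation, 6 were held higher and 5 did not pass, with a median of 2.41 (2.24 without replicate 1). H2-DMA and CIITA were under 1 scaled FPKM in every control and reached the filter only through sh-B7-H3 (2), and of the other 9 genes 4 were held, with a median of 0.27. H2-DMA, a chain of the molecule that loads peptide onto class II, had 0.502, 0.316 and 0.226 with sh-NC and 28.4, 17.2 and 16.7 with sh-B7-H3 (2), at 3.98 (adjusted p = 5.5e-05). H2-DMB2, a partner chain, had 1.02, 0.972 and 1.11 with sh-NC and 26.3, 27.3 and 25.8 with sh-B7-H3 (2), at 3.76 (adjusted p = 7.61e-06). CIITA, the class II coactivator, was chosen after its values were seen and had 0.127, 0.0672 and 0.0221 with sh-NC and 6.26, 4.12 and 3.98 with sh-B7-H3 (2). CTSS, a protease that trims CD74 and is abundant in macrophages, had 5.10, 6.13 and 5.69 with sh-NC and 258, 43.7 and 42.0 with sh-B7-H3 (2). Replicate 1 was far above replicates 2 and 3, which were still above every control, and the log2 fold change was 3.58, or 2.73 without replicate 1 (adjusted p = 0.000177). The subunits of the DNA-binding complex that recruits CIITA did not pass, at 0.23 for RFX5, 0.14 for RFXAP and 0.27 for RFXANK. H2-OA and H2-OB, which restrain loading in B cells, were below the filter, with 1.10 and 1.34 scaled FPKM in replicate 1 and at most 0.0650 in the other 5 libraries.

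Class II promoters hold a CCAAT letter group, on either strand, next to the elements to which the CIITA complex binds. The promoters of H2-Aa and H2-Eb1 are shown because these are the class II chains for which RefSeq gave a window (build GRCm38.p6, the assembly of mm10). Each is the 120 bases before the annotated start, 5′ to 3′ on the strand of the gene, with CCAAT or its reverse complement in capitals.
H2-Aa, chr17:34287824-34287943, minus strand: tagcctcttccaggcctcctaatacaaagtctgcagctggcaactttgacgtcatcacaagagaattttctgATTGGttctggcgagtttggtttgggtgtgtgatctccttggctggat
H2-Eb1, chr17:34305747-34305866, plus strand: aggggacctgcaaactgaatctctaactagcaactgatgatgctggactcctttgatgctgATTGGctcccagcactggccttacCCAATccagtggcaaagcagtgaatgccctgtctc
The letters begin 48 bases before the start in H2-Aa, and 59 and 35 bases before it in H2-Eb1. Within 250 bases before the start, CCAAT was in 2 of 2 class II chains with a window, in 6 of 8 tested loading genes and in 40.8% of all tested genes with a window, so the letters are common and a match is a description only.

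**Figure D3:**
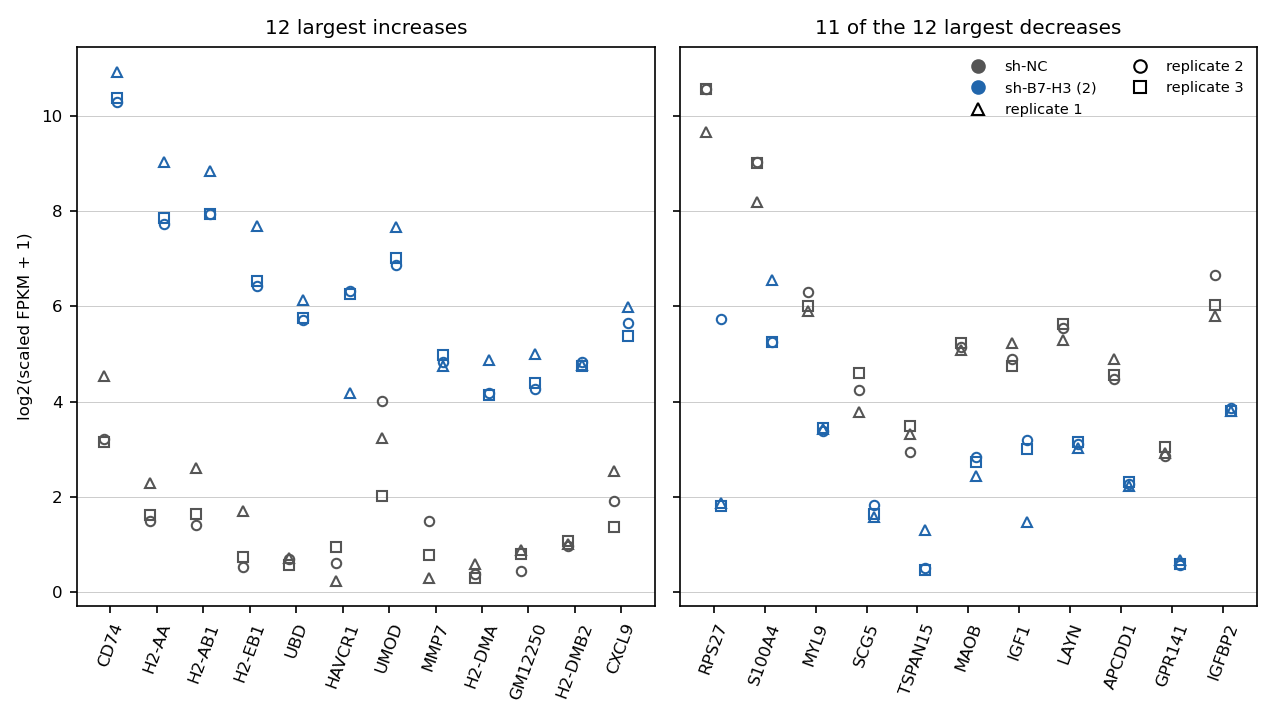
Log2(scaled FPKM + 1) per library of the 12 genes with the largest increases (left) and of 11 of the 12 with the largest decreases (right) among held genes with at least 5 scaled FPKM in the higher group and no overlap of libraries. The sh-B7-H3 (2) symbols (blue) lie wholly above the sh-NC symbols (grey) on the left and wholly below them on the right, and for HAVCR1 replicate 1 (triangle) is the lowest of its group, at 17.2 against 78.8 and 75.1.

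MHC class I genes rose in part. Of 13 tested class I heavy chains, 8 passed with 6 libraries and 5 were held, each of them higher. The list had a median log2 fold change of 0.97 (0.91 without replicate 1). The classical chain H2-K1 had 945, 841 and 760.1 with sh-NC and 1654, 1467 and 1570.5 with sh-B7-H3 (2), with no overlap, and its log2 fold change was 0.88 (standard error 0.20, adjusted p = 0.0195) and 0.84 without replicate 1 (adjusted p = 0.0636), so it was not held. H2-D1, the other classical chain, did not pass, at 0.56 (adjusted p = 0.068). The held chains were nonclassical, H2-Q2 at 1.89, H2-T23 at 1.47, H2-T10 at 1.02, H2-Q10 at 0.97 and H2-Q1 at 0.95. Chains of the H2-Q and H2-T regions are close copies of each other, and how reads were shared among them is not known. H2-T9, for example, had 64.8, 0.174 and 81.2 in the sh-B7-H3 (2) libraries, so replicate 2 stood apart from the other two.

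Of 14 genes for class I loading and the immunoproteasome, 11 passed with 6 libraries and 9 were held, all higher, with a median of 1.43 (1.37 without replicate 1). PSMB9, an interferon-inducible proteasome subunit, had 8.07, 10.8 and 13.5 with sh-NC and 91.6, 56.3 and 62.7 with sh-B7-H3 (2), at a log2 fold change of 2.59 (standard error 0.23, adjusted p = 0.000231) and 2.39 without replicate 1 (adjusted p = 0.000589). Its neighbours in the immunoproteasome, PSMB8 and PSMB10, rose by 1.80 and 1.69 on the log2 scale. TAPBPL, a peptide editor, had 8.84, 8.62 and 8.66 with sh-NC and 40.8, 32.4 and 31.7 with sh-B7-H3 (2) and rose by 1.88. TAP1, a subunit of the peptide transporter, had 21.6, 16.4 and 16.1 with sh-NC and 64.0, 55.6 and 57.2 with sh-B7-H3 (2) and rose by 1.66. B2M, the light chain shared by class I molecules, did not pass, with 5931, 5199.5 and 3762 with sh-NC and 4933, 4646 and 3891 with sh-B7-H3 (2) and a log2 fold change of -0.13 (adjusted p = 0.832). The chaperones CALR and PDIA3 did not pass either, at -0.18 and 0.07.

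Tested interferon receptors and Janus kinases did not pass, while some of the factors below them rose. Among 17 tested receptors, Janus kinases, STATs, IRFs and SOCS genes, 6 were held, all higher, and the median was 0.39 (0.34 without replicate 1). IRF1, a transcription factor induced directly by interferon gamma, had 7.09, 6.11 and 8.04 with sh-NC and 77.3, 50.6 and 53.8 with sh-B7-H3 (2). The groups were widely separated, at a log2 fold change of 2.91 (standard error 0.19, adjusted p = 6.97e-05) and 2.72 without replicate 1 (adjusted p = 0.000195). SOCS1, the feedback inhibitor of this pathway, had 1.27, 1.03 and 0.946 with sh-NC and 6.94, 4.595 and 4.57 with sh-B7-H3 (2), at 1.60 (adjusted p = 0.000547). STAT2 and IRF7, further transcription factors of the pathway, rose by 0.84 and 0.80. The interferon gamma receptor chains gave 0.31 (adjusted p = 0.154) for IFNGR1 and 0.39 (adjusted p = 0.0575) for IFNGR2, and JAK1 gave -0.36 (adjusted p = 0.184). Interferon gamma itself, IFNG, was listed at 0 in all sh-NC libraries and in sh-B7-H3 (2) replicates 2 and 3, and at 0.724 in replicate 1.

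The 15 tested interferon-induced GTPases were held, but 6 of them (GBP4, GBP5, GBP6, GBP8, GBP9 and GBP10) were under 1 scaled FPKM in every control and were tested only because they were high with sh-B7-H3 (2). The other 9 were held as well, with a median log2 fold change of 2.68. These guanylate-binding proteins (GBP) and immunity-related GTPases attack the compartments of intracellular pathogens. The median of the 15, each higher, was 2.64 (2.53 without replicate 1). GBP2 had 30.9, 23.6 and 25.2 with sh-NC and 354, 283 and 266 with sh-B7-H3 (2), at 3.45 (standard error 0.17, adjusted p = 5.5e-05) and 3.33 without replicate 1 (adjusted p = 0.000177). TGTP1 had 18.6, 15.1 and 18.8 with sh-NC and 257, 159 and 155 with sh-B7-H3 (2) and rose by 3.33 on the log2 scale, but it is a near copy of TGTP2, which rose by 3.21, and their reads may be shared. IGTP had 14.3, 10.9 and 13.3 with sh-NC and 130.2, 99.7 and 105 with sh-B7-H3 (2) and rose by 3.02. GBP5, which was near the filter in controls, had 0.894, 0.667 and 0.545 with sh-NC and 15.3, 11.1 and 10.3 with sh-B7-H3 (2) and rose by 2.94. GM12250, a further gene of the immunity-related GTPases that no list held, had 0.847, 0.368 and 0.757 with sh-NC and 31.0, 18.3 and 20.0 with sh-B7-H3 (2), at 3.84 (adjusted p = 5.5e-05). GM12250 also reached the filter only through sh-B7-H3 (2). In GBP2, TGTP1 and IGTP the lowest sh-B7-H3 (2) library exceeded the highest control, but the groups also did not overlap in 1607 of all 1608 held genes.

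The core of the interferon-stimulated response element, to which IRF proteins bind, is the letter group GAAA, 2 bases of any kind and GAAA again. It stood within 250 bases before the start of all 9 tested GTPases with a promoter window. The upstream 120 bases of 3 of them are shown because they are members of the group that moved as a whole, with this core or its reverse complement in capitals.
Igtp, chr11:58199436-58199555, plus strand: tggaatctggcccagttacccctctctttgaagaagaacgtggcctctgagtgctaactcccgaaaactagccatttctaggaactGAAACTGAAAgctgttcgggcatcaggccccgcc
Gbp2, chr3:142620543-142620662, plus strand: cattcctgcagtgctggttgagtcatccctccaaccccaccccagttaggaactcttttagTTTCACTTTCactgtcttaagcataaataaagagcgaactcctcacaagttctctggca
Tgtp1, chr11:48992247-48992366, minus strand: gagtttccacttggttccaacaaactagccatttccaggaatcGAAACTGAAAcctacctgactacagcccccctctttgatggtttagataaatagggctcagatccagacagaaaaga
The letters began 34, 59 and 77 bases before the start. They were found in 3.46% of all 27025 genes with a window, in 3.36% of tested genes, in 7.24% of the 773 held genes that were higher and in 2.59% of the 425 that were lower. TTCNNNGAA, the palindrome known as the gamma-activated site, was in 6 of the 9 GTPase windows, in 9.31% of held higher genes, 8.71% of held lower genes and 7.21% of tested genes. Windows were searched on both strands, matched by symbol, and a match does not show binding.

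Most antiviral genes were higher. Of 24 tested, 21 passed with 6 libraries and 17 were held, all higher, with a median of 1.12 (0.98 without replicate 1). OASL2, a member of the oligoadenylate synthetase family, had 14.1, 7.84 and 6.32 with sh-NC and 48.1, 47.6 and 43.9 with sh-B7-H3 (2), at 2.26 (standard error 0.25, adjusted p = 0.000659) and 2.24 without replicate 1 (adjusted p = 0.00313). ZBP1, a nucleic acid sensor, had 20.7, 22.2 and 24.2 with sh-NC and 118, 76.1 and 88.1 with sh-B7-H3 (2) and rose by 2.00. OAS2, OAS3 and IFI44 rose by 1.95, 1.84 and 1.47. OAS2 was under 1 scaled FPKM in every control and reached the filter only through sh-B7-H3 (2). Some genes often used as reporters of type I interferon were not held. IFIT1 gave 0.59 (standard error 0.17, adjusted p = 0.0466) and 0.45 without replicate 1 (adjusted p = 0.122), and ISG15 gave 0.88 (standard error 0.24, adjusted p = 0.0374) and 0.70 without replicate 1 (adjusted p = 0.106), so neither was held, while IFIT2 and MX2 did not pass in either fit.

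Chemokine ligands rose in most members. Of 11 tested, 9 were held, all higher, with a median of 1.98 (1.68 without replicate 1). CXCL2 and CXCL11 were under 1 scaled FPKM in every control and reached the filter only through sh-B7-H3 (2). Of the other 9 genes 7 were held, with a median of 1.84. CXCL9, which attracts T cells through CXCR3, had 4.83, 2.75 and 1.60 with sh-NC and 62.8, 49.1 and 40.7 with sh-B7-H3 (2), at 3.73 (standard error 0.29, adjusted p = 0.000148) and 3.57 without replicate 1 (adjusted p = 0.000616). CXCL10, a further CXCR3 ligand, had 5.86, 6.63 and 5.24 with sh-NC and 64.1, 31.1 and 35.9 with sh-B7-H3 (2) and rose by 2.63. CXCL2 and CXCL1, which attract neutrophils, rose by 3.08 and 2.42, and CXCL1 was lower in replicate 1 (30.6, 68.9 and 54.3 in the 3 libraries). CCL8 had 2.32, 2.06 and 5.49 with sh-NC and 57.2, 9.40 and 12.2 with sh-B7-H3 (2) and passed with adjusted p = 0.0376, or 0.0243 without replicate 1. CCL5, which lymphocytes make, did not pass with 6 libraries (1.67, adjusted p = 0.0619) but passed without replicate 1 (0.97, adjusted p = 0.00235), and replicate 1 had 23.5 against 4.72 and 4.66.

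Several ligands and enzymes that restrain T cells rose. Of 9 tested checkpoint ligands and tryptophan enzymes, 6 were held, all higher, with a median of 1.197 (1.23 without replicate 1). IDO1 and TNFRSF14 were under 1 scaled FPKM in every control and reached the filter only through sh-B7-H3 (2). Of the other 7 genes 4 were held. IDO1, which degrades tryptophan, had 0.194, 0.128 and 0.190 with sh-NC and 11.5, 13.8 and 13.6 with sh-B7-H3 (2), at 3.57 (standard error 0.12, adjusted p = 1.57e-05) and 3.65 without replicate 1 (adjusted p = 7.97e-05). VTCN1, the B7 family member B7-H4, had 1.15, 1.90 and 1.53 with sh-NC and 14.3, 12.8 and 13.6 with sh-B7-H3 (2) and rose by 2.54. CD274, which encodes PD-L1, had 4.39, 4.02 and 4.51 with sh-NC and 13.6, 13.0 and 11.99 with sh-B7-H3 (2), at 1.38 (adjusted p = 0.000188). NECTIN2 and WARS rose by 1.46 and 1.197, and LGALS9, PVR and ICOSL did not pass. The costimulatory genes CD80, CD86 and CD40 were below the filter, with 1.26, 4.13 and 2.45 scaled FPKM in replicate 1 and at most 0.992 in the other 5 libraries. UBD, which encodes the ubiquitin-like protein FAT10 and belonged to no list, had 0.655, 0.628 and 0.487 with sh-NC and 69.1, 51.5 and 52.9 with sh-B7-H3 (2), at 5.20 (standard error 0.15, adjusted p = 7.61e-06) and 5.07 without replicate 1 (adjusted p = 5.35e-05). UBD also reached the filter only through sh-B7-H3 (2).

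Genes of complement and NF-kB feedback were changed in part, and few genes of cell death were held. Of 12 cell death genes 3 were held higher, among them TNFSF10 (TRAIL) at 2.55 and RIPK3, a kinase of necroptosis, at 2.13, and the median of the list was 0.06 (0.09 without replicate 1). TNFSF10 was under 1 scaled FPKM in every control and reached the filter only through sh-B7-H3 (2). Of the other 11 genes 2 were held, with a median of 0.04, a share near the 14.3% of all tested genes held. CASP1, CASP8, FAS and MLKL did not pass. Of 7 tested complement genes 6 passed with 6 libraries and 5 were held, all higher, with a median of 1.32 (1.51 without replicate 1). CFB, a component of the alternative pathway, had 4.88, 6.71 and 5.92 with sh-NC and 46.8, 36.2 and 40.0 with sh-B7-H3 (2) and rose by 2.62, and SERPING1, the C1 inhibitor, had 14.9, 7.55 and 14.6 with sh-NC and 45.1, 88.1 and 87.3 with sh-B7-H3 (2) and rose by 2.47. C3 and C4B, which has a near-identical copy, passed narrowly, with adjusted p of 0.0363 and 0.0419. C3 had 248, 145 and 123 with sh-NC and 258, 538 and 539 with sh-B7-H3 (2), so replicate 1 was close to the highest control. Of 10 tested NF-kB genes 6 passed and 5 were held, all higher, with a median of 0.62 (0.56 without replicate 1). TNFAIP3, an inhibitor that NF-kB itself induces, had 2.38, 3.17 and 1.71 with sh-NC and 10.8, 12.6 and 12.7 with sh-B7-H3 (2), at 1.95 (adjusted p = 0.000248). NFKBIA, a further such inhibitor, had 12.2, 14.3 and 11.7 with sh-NC and 42.8, 48.0 and 44.6 with sh-B7-H3 (2), at 1.75 (adjusted p = 0.000101). ICAM1 rose by 2.21 but was under 1 scaled FPKM in every control and reached the filter only through sh-B7-H3 (2). NFKB1, NFKB2 and BCL3 did not pass. IL6 and TNF were below the filter.

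**Figure D4:**
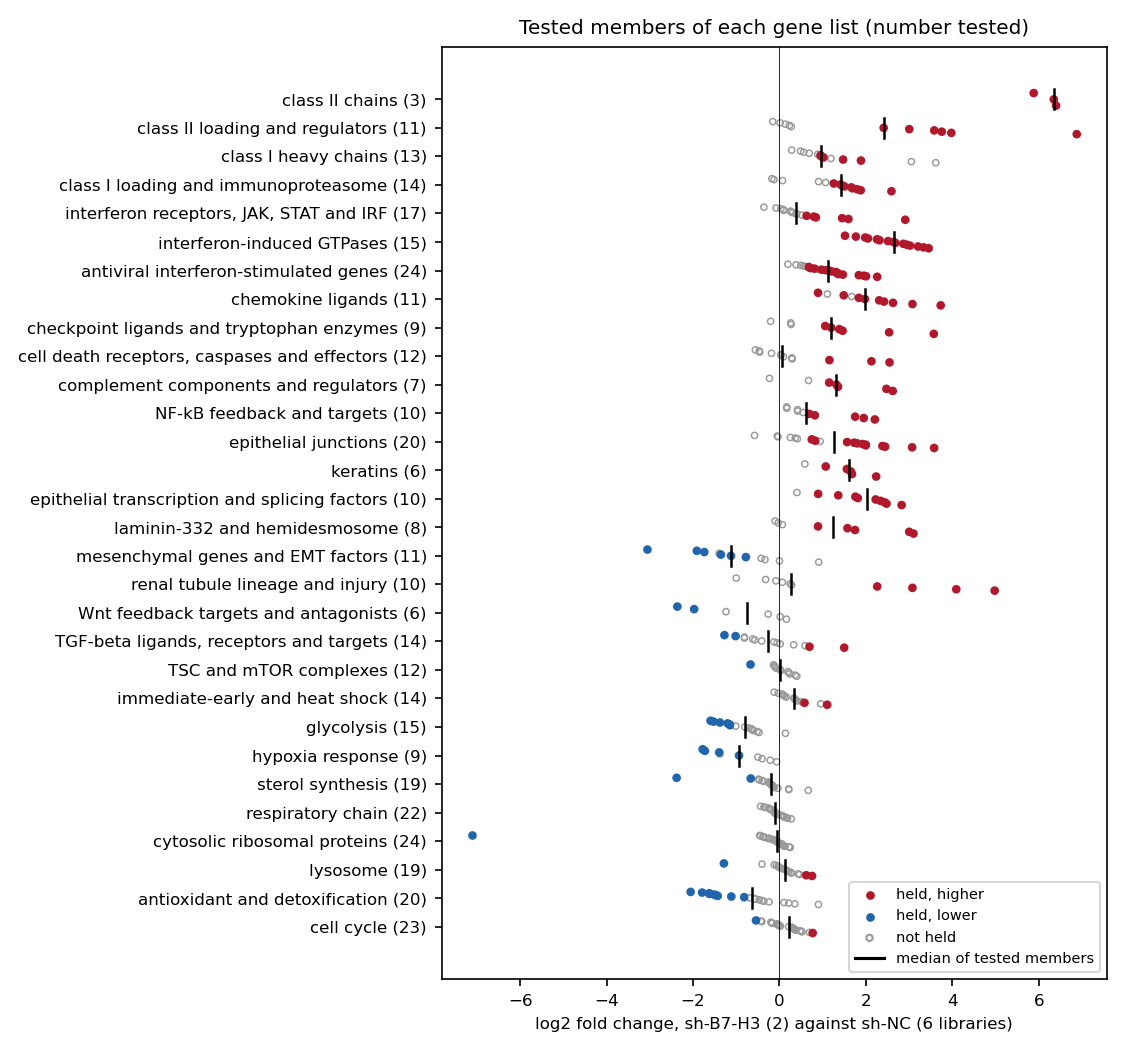
Log2 fold change (x axis, 6 libraries) of every tested member of the 30 gene lists, with the number tested in brackets. Filled symbols are held genes, red higher and blue lower, open symbols did not hold, and bars mark medians, which run from 6.35 for class II chains to -1.12 for mesenchymal genes.

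Many epithelial genes rose. Of 20 tested junction genes 13 passed with 6 libraries and 12 were held, all higher, with a median of 1.25 (1.15 without replicate 1). Among them 1 gene was under 1 scaled FPKM in every control. Of the other 19 genes 11 were held, with a median of 0.94. CLDN7, a tight junction claudin, had 2.76, 3.29 and 3.42 with sh-NC and 57.7, 42.1 and 47.0 with sh-B7-H3 (2), at 3.58 (standard error 0.15, adjusted p = 4.19e-05) and 3.46 without replicate 1 (adjusted p = 0.000127). EPCAM, an adhesion molecule of epithelia, had 20.3, 27.4 and 17.2 with sh-NC and 221, 177 and 164 with sh-B7-H3 (2) and rose by 3.07. The desmosomal genes PKP3 and DSC2 rose by 2.44 and 2.38, and TJP3, a scaffold of tight junctions, by 2.00. CDH1, which encodes E-cadherin, did not pass, with 357, 261 and 209.6 with sh-NC and 166, 194 and 182 with sh-B7-H3 (2) and a log2 fold change of -0.58 (adjusted p = 0.103). TJP1, PKP2 and JUP did not pass either.

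Of 6 tested keratins 5 were held, all higher, with a median of 1.61 (1.58 without replicate 1). KRT20 was under 1 scaled FPKM in every control and reached the filter only through sh-B7-H3 (2). Of the other 5 keratins 4 were held. KRT19 had 150.3, 203 and 139 with sh-NC and 552, 512 and 499 with sh-B7-H3 (2) and rose by 1.68, KRT14 had 2.15, 3.39 and 2.61 with sh-NC and 22.3, 13.2 and 14.8 with sh-B7-H3 (2) and rose by 2.24, and KRT8 passed with 6 libraries but not without replicate 1 (adjusted p = 0.0277 and 0.0902). Of 10 tested epithelial transcription and splicing factors 9 were held, all higher, with a median of 2.02 (2.00 without replicate 1). GRHL2 was among 3 that were under 1 scaled FPKM in every control and reached the filter only through sh-B7-H3 (2). Of the other 7 factors 6 were held, with a median of 2.34. ESRP1, a splicing regulator that defines epithelial isoforms, had 1.70, 1.91 and 1.08 with sh-NC and 18.2, 16 and 16.9 with sh-B7-H3 (2), at 2.83 (standard error 0.16, adjusted p = 5.5e-05) and 2.78 without replicate 1 (adjusted p = 0.000227). EHF and ELF3, ETS factors of epithelia, rose by 2.48 and 2.34, and GRHL2, which maintains junction genes, by 2.23. KLF4 did not pass. Of 8 tested laminin-332 and hemidesmosome genes 5 were held, all higher, with a median of 1.23 (1.21 without replicate 1). LAMB3, a chain of that laminin, had 1.58, 1.78 and 1.02 with sh-NC and 19.0, 20.0 and 20.8 with sh-B7-H3 (2), at 3.10 (adjusted p = 5.5e-05). LAMA3, its alpha chain, had 2.40, 2.63 and 0.825 with sh-NC and 21.0, 22.8 and 21.1 with sh-B7-H3 (2), at 3.0 (adjusted p = 0.000188). The integrin ITGB4 rose by 1.75, and ITGA3, DST and PLEC did not pass.

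Some mesenchymal genes fell. Of 11 tested, 7 passed with 6 libraries and 6 were held, all lower, with a median log2 fold change of -1.12 (-1.30 without replicate 1). S100A4, a calcium-binding protein of motile and fibroblast-like cells, had 290.2, 517 and 515 with sh-NC and 93.1, 37.1 and 36.9 with sh-B7-H3 (2). Every sh-B7-H3 (2) library was below every control, and replicate 1 was the highest of the 3, at a log2 fold change of -3.05 (standard error 0.39, adjusted p = 0.00136) and -3.49 without replicate 1 (adjusted p = 0.000396). VIM, the intermediate filament vimentin, had 1522, 1438 and 1239 with sh-NC and 313, 399 and 404 with sh-B7-H3 (2), at -1.91 (adjusted p = 0.00047). SPARC, a matrix protein, had 434, 483 and 504 with sh-NC and 124, 153 and 147 with sh-B7-H3 (2), at -1.74 (adjusted p = 0.000231). ZEB1, a repressor of epithelial genes, had 10.8, 9.18 and 6.72 with sh-NC and 2.86, 2.90 and 2.69 with sh-B7-H3 (2), at -1.36 (adjusted p = 0.00126), and ACTA2 fell, at -1.12. FN1 passed with 6 libraries (-1.40, adjusted p = 0.044) but not without replicate 1, and its control values ran from 935 to 2836. ZEB2, TWIST2, TAGLN and TPM2 did not pass, and SNAI1, SNAI2 and TWIST1 were below the filter. In these sorted cells, fewer cells with such a program and less RNA per cell cannot be told apart, and the same holds for every gene here.

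Fibroblast markers moved with the groups and did not fall. The 9 fibroblast markers summed to 76.3, 48.4 and 112 scaled FPKM with sh-NC and to 175, 136 and 137 with sh-B7-H3 (2), and of 7 tested 2 were held, COL3A1 (10.9, 6.28 and 12.7 with sh-NC and 38.5, 26.4 and 27.8 with sh-B7-H3 (2)) and COL1A2 (6.78, 3.27 and 7.86 with sh-NC and 31.5, 16.3 and 17.1 with sh-B7-H3 (2)), both higher. DCN, DPT, LUM and PDGFRB did not pass. The part of fibroblast RNA in the mesenchymal values was not tested. Likewise, 3 macrophage list members were held higher, CSF1R (1.30, 0.818 and 0.567 with sh-NC and 23.3, 7.75 and 7.32 with sh-B7-H3 (2)), CD14 (18.7, 26.7 and 33.0 with sh-NC and 89.6, 58.6 and 68.9 with sh-B7-H3 (2)) and CD68 (33.3, 31.0 and 24.97 with sh-NC and 70.4, 61.2 and 50.9 with sh-B7-H3 (2)), while in replicates 2 and 3 LYZ2, C1QA, C1QB and C1QC lay between 0.863 and 1.37. Their part in other values was not tested. Of the T cell list 1 gene was tested, LCK (0.472, 0.380 and 0.718 with sh-NC and 3.45, 1.79 and 1.30 with sh-B7-H3 (2)), which was held higher, beside CD3D, CD3E and CD4, which were at 0 or at most 0.0743 in the sh-NC libraries and in sh-B7-H3 (2) replicates 2 and 3. LCK was under 1 scaled FPKM in every control and reached the filter only through sh-B7-H3 (2), so its call was in part fixed by it.

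Of 10 tested renal genes 4 were held, all 4 higher. HAVCR1 encodes kidney injury molecule 1, a marker of injured proximal tubule. It had 0.182, 0.527 and 0.947 with sh-NC and 17.2, 78.8 and 75.1 with sh-B7-H3 (2), and reached the filter only through the sh-B7-H3 (2) libraries. All 3 sh-B7-H3 (2) libraries were above all controls, and replicate 1 was the lowest of them, so the log2 fold change was larger without it, 4.98 (standard error 0.54, adjusted p = 0.000589) and 5.68 without replicate 1 (adjusted p = 9.42e-05). UMOD, uromodulin of the thick ascending limb, had 8.39, 15.1 and 3.08 with sh-NC and 201, 116 and 127 with sh-B7-H3 (2), at 4.09 (standard error 0.46, adjusted p = 0.000736) and 3.85 without replicate 1 (adjusted p = 0.00307). LCN2, an iron-scavenging protein released on tubular injury, had 235, 238 and 140.3 with sh-NC and 1678, 1646 and 1728 with sh-B7-H3 (2), at 3.08 (adjusted p = 0.000144). VCAM1, an adhesion molecule, had 9.52, 8.10 and 7.62 with sh-NC and 54.4, 39.2 and 39.8 with sh-B7-H3 (2), at 2.26 (adjusted p = 0.000106). The other 6 tested genes of this list of 19, among them PAX2, PAX8, CDH16, AQP1 and SPP1, were not held, and the median was 0.26 (0.56 without replicate 1). SPP1 had 4608, 5741 and 6082 with sh-NC and 3202, 9242 and 9111 with sh-B7-H3 (2), and replicate 1 was lowest. PAX8 and CDH16, which mark renal epithelium, were present in all 6 libraries at 19.0 to 34.7 and 70.1 to 106, while SLC34A1, which marks proximal tubule, was listed at 0 in all 6. MMP7, a metalloprotease, belonged to no list and had 0.234, 1.84 and 0.731 with sh-NC and 25.8, 27.6 and 30.4 with sh-B7-H3 (2), at 3.98 (standard error 0.28, adjusted p = 9.27e-05) and 4.04 without replicate 1 (adjusted p = 0.000406).

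Among the largest decreases, most genes belonged to no shared list. MYL9, a regulatory light chain of myosin, had 58.7, 77.9 and 63.7 with sh-NC and 9.81, 9.51 and 9.97 with sh-B7-H3 (2), at -2.65 (standard error 0.14, adjusted p = 5.5e-05) and -2.65 without replicate 1 (adjusted p = 0.000205). MAOB, which oxidizes monoamines, had 32.8, 34.2 and 36.4 with sh-NC and 4.41, 6.11 and 5.63 with sh-B7-H3 (2), at -2.48 (adjusted p = 5.5e-05). IGFBP2, which binds insulin-like growth factors, had 54.3, 99.6 and 64.2 with sh-NC and 13.0, 13.6 and 13.1 with sh-B7-H3 (2), at -2.33 (adjusted p = 0.000268), and the growth factor IGF1 had 36.7, 28.9 and 26.0 with sh-NC and 1.79, 8.17 and 7.08 with sh-B7-H3 (2), at -2.40 (adjusted p = 0.0061), or -1.86 without replicate 1. LAYN, a hyaluronan receptor, had 38.0, 45.9 and 48.6 with sh-NC and 7.15, 7.67 and 7.92 with sh-B7-H3 (2), at -2.39 (adjusted p = 5.5e-05). SCG5, a chaperone of the secretory pathway, had 12.8, 18.05 and 23.2 with sh-NC and 1.98, 2.56 and 2.12 with sh-B7-H3 (2), at -2.53 (adjusted p = 0.000175), and TSPAN15, a tetraspanin that binds ADAM10, had 9.03, 6.74 and 10.2 with sh-NC and 1.47, 0.426 and 0.386 with sh-B7-H3 (2), at -2.49 (adjusted p = 0.000414). GPR141, an orphan receptor, had 6.59, 6.24 and 7.29 with sh-NC and 0.600, 0.486 and 0.509 with sh-B7-H3 (2), at -2.33 (adjusted p = 5.5e-05). GPR141 was under 1 scaled FPKM in every sh-B7-H3 (2) library and reached the filter only through sh-NC, so its call was in part fixed by it. These genes, like the 12 with the largest increases, were chosen among those whose groups did not overlap, so their separation is no result.

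RPS27, a ribosomal protein gene, had the largest decrease of all, 804, 1514 and 1509.6 with sh-NC and 2.66, 52.3 and 2.51 with sh-B7-H3 (2), at -7.12 (standard error 0.97, adjusted p = 0.00182) and -6.49 without replicate 1 (adjusted p = 0.00647), and lost its call with sample quality weights. It has a near-identical copy, RPS27RT, with the opposite pattern, at 0.472, 0.994 and 330.1 with sh-NC and 1402, 964 and 1030 with sh-B7-H3 (2). RPS27RT was looked at after these values were seen. The sum of both was 805, 1515 and 1839.7 with sh-NC and 1405, 1016 and 1032 with sh-B7-H3 (2), so the groups overlapped. How reads were shared between the copies is not known, and the value of RPS27 alone is uncertain.

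Glycolysis and hypoxia genes fell in part. Of 15 tested glycolysis genes 9 passed with 6 libraries and 6 were held, all lower, with a median of -0.80 (-0.68 without replicate 1). ENO1, an enolase with a near copy elsewhere in the genome, had 113, 142 and 158 with sh-NC and 38.4, 48.6 and 47.2 with sh-B7-H3 (2), at -1.59 (adjusted p = 0.000534). SLC2A1, the glucose transporter GLUT1, had 124, 152 and 111 with sh-NC and 33.3, 50.3 and 49.9 with sh-B7-H3 (2), at -1.53 (standard error 0.20, adjusted p = 0.00151) and -1.34 without replicate 1 (adjusted p = 0.00315). PKM, GPI1 and PGAM1 gave log2 fold changes with 6 libraries of -1.38, -1.199 and -1.16, while HK1, HK2, GAPDH, PGK1 and LDHA did not pass. Of 9 tested hypoxia genes 5 passed and 4 were held, all lower, with a median of -0.94 (-0.80 without replicate 1). NDRG1 had 480, 527 and 405 with sh-NC and 72.1, 185 and 188 with sh-B7-H3 (2), at -1.78 (standard error 0.36, adjusted p = 0.012) and -1.32 without replicate 1 (adjusted p = 0.00482). ADM, EGLN3 and VEGFA gave -1.73, -1.39 and -0.94. In each of these 4 genes replicate 1 was the lowest of the 6 libraries, and ANKRD37, P4HA1, P4HA2 and MIF did not pass. With FPKM as deposited the medians of both lists stayed negative, at -0.57 and -0.71.

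Antioxidant and detoxification genes fell in part. Of 20 tested, 11 passed lower and 1 higher with 6 libraries, and 9 were held, all lower, with a median of -0.63 (-0.61 without replicate 1, and -0.40 with FPKM as deposited). AKR1B7, an aldose reductase family member, had 22.3, 35.4 and 64.4 with sh-NC and 12.2, 6.08 and 7.28 with sh-B7-H3 (2), at -2.06 (adjusted p = 0.00796). NQO1, a quinone reductase induced by NRF2, had 18.6, 26.9 and 45.4 with sh-NC and 8.47, 8.13 and 8.99 with sh-B7-H3 (2), at -1.63 (standard error 0.28, adjusted p = 0.00592) and -1.62 without replicate 1 (adjusted p = 0.0207). CAT, catalase, had 268, 268 and 249 with sh-NC and 78.9, 89.5 and 85.3 with sh-B7-H3 (2), at -1.62 (adjusted p = 0.000152). The glutathione transferases GSTA1 and GSTA4 gave -1.79 and -1.504. GSTO1, the gene that passed higher, was not held, and GPX1, GPX3, GPX4, SOD2 and PRDX1 did not pass.

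Developmental signaling genes were changed in some members. The Wnt and TGF-beta lists are small, and their shares of genes held lay above the 14.3% of all tested genes. The TGF-beta share counts 2 genes that reached the filter only through sh-B7-H3 (2). Of 6 tested Wnt feedback targets and antagonists 3 passed and 2 were held, both lower, with a median of -0.75 (-0.62 without replicate 1). They were APCDD1, a membrane inhibitor of Wnt, with 28.9, 21.3 and 22.5 with sh-NC and 3.72, 3.86 and 4.01 with sh-B7-H3 (2) at -2.36 (adjusted p = 5.96e-05), and DKK3 with 15.8, 18.7 and 21.1 with sh-NC and 3.31, 4.12 and 4.47 with sh-B7-H3 (2) at -1.97 (adjusted p = 0.000146). AXIN2, the usual feedback target, was below the filter. Of 14 TGF-beta genes 2 rose and 2 fell among those held, among them LTBP2 (1.497) and INHBA (0.69) higher and the receptor TGFBR2 (-1.02) lower, with a median of -0.27 (-0.34 without replicate 1, and -0.06 with FPKM as deposited). LTBP2 and INHBA were under 1 scaled FPKM in every control and reached the filter only through sh-B7-H3 (2). Of the other 12 genes 2 were held, beside 1343 of the 10946 tested genes that were not under 1 scaled FPKM in every control. These shares are near each other, so no result about the TGF-beta list is read from them. Of 14 immediate-early and heat shock genes 4 passed and 2 were held higher, FOSB (1.10) and HSPA1B (0.58), which has a near-identical copy, with a median of 0.34 in both fits. That share equals the 14.3% of all tested genes held, 1 gene passed with the replicate block, and HSPA1B lost its call there. FOS, JUN and EGR1, which respond to tissue dissociation, did not pass.

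In the lists of core cell functions, the share of members held was near or below the 14.3% of all tested genes. Of 12 TSC and mTOR genes 1 was held, EIF4EBP1, a repressor of translation that mTOR inactivates, with 99.7, 131 and 131 with sh-NC and 78.3, 72.9 and 72.7 with sh-B7-H3 (2) at -0.68 (adjusted p = 0.0175). It lost its call with FPKM as deposited, with the replicate block, with replicates 2 and 3 averaged and without sh-B7-H3 (2) replicate 2, sh-B7-H3 (2) replicate 3 or sh-NC replicate 2. The median of the list was 0.02 (0.07 without replicate 1), which turned to -0.05 with quantile normalization. TSC2 did not pass, and its RNA level does not check the deletion. Of 22 respiratory chain genes 0 passed in the limma fit with 6 libraries, where 1 had an unadjusted p under 0.05, and 0 passed without replicate 1, where 0 did. Their median was -0.11 (-0.12 without replicate 1), which turned to 0.12 with FPKM as deposited and to 0.01 with quantile normalization. Of 24 ribosomal protein genes RPS27 alone was held, and the median was -0.07 (-0.16 without replicate 1), which turned to 0.17 with FPKM as deposited and to 0.08 with quantile normalization. Of 19 sterol synthesis genes 2 were held lower, among them IDI1 at -0.67 (adjusted p = 0.0142). FDPS passed higher and HMGCS1 lower with 6 libraries alone. The median of the list was -0.21 (-0.24 without replicate 1), which turned to 0.02 with FPKM as deposited. Of 19 tested lysosomal genes CTSB (0.75) and NEU1 (0.62) were held higher and GPNMB (-1.29) lower, with a median of 0.14 in both fits. Of 23 cell cycle genes RRM2 was held higher (0.77) and CCNB2 lower (-0.54), with a median of 0.21 (0.05 without replicate 1), and MKI67, TOP2A and CCNA2 did not pass.

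The 2 shRNAs were also compared directly, since the labels give the same target. Of 11239 tested genes 382 (3.4%) differed between (2) and (1), 184 higher and 198 lower in (2). Same-numbered libraries of these groups deviated together, and with the replicate number as a block 1864 genes (16.6%) differed, 849 higher and 1015 lower. Without sh-B7-H3 (2) replicate 1 the count was 952, with replicates 2 and 3 averaged it was 70, and leaving out any 1 of the other 5 libraries gave 56 to 229. Of the 1573 genes held against sh-NC that were tested here, 208 differed, or 580 with the block. Of the 208 genes, 190 lay further from sh-NC in (2). Held and named genes were chosen by the same sh-B7-H3 (2) libraries, so the choice itself favours such differences. Both shRNA comparisons share the sh-NC libraries, so their fold changes against sh-NC are not independent. CD74 had 1988, 1114 and 1223 scaled FPKM with sh-B7-H3 (1), and the direct difference for CD74 was 0.07 (adjusted p = 0.892, 0.501 with the replicate block). For IRF1, GBP2 and CXCL9 the differences were 0.09 (adjusted p = 0.879, 0.507 with the replicate block), 0.29 (adjusted p = 0.641, 0.323 with the replicate block) and 0.07 (adjusted p = 0.897, 0.71 with the replicate block). For IDO1 the difference was 0.54 (adjusted p = 0.464, 0.361 with the replicate block). A difference that misses the threshold does not show that the shRNAs act alike. Of the 15 tested GTPases 0 differed in the limma fit without the block, where 1 had an unadjusted p under 0.05, and with the block 2 were lower in (2). UMOD, at 60.5, 90.2 and 56.7 with sh-B7-H3 (1), gave 1.08 (adjusted p = 0.0581, 0.0494 with the replicate block), and passed with the block alone.

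Among genes named above, the following differed directly without the block, besides CD276 and RPS27, and each passed with it. HAVCR1 was at 0.0217, 0 and 0.0295 with sh-B7-H3 (1) against 17.2, 78.8 and 75.1 with sh-B7-H3 (2), and the log2 difference was 5.56 (adjusted p = 0.00309, 0.00955 with the replicate block). In this test too HAVCR1 reached the filter only through sh-B7-H3 (2), so its calls here were in part fixed by it. MMP7 was at 2.23, 4.81 and 0.854 with sh-B7-H3 (1), a difference of 3.14 (adjusted p = 0.00709, 0.0155 with the replicate block). VCAM1 was at 21.8, 19.9 and 16.6, a difference of 1.15 (adjusted p = 0.0133, 0.00897 with the replicate block). TNFAIP3 was at 5.68, 3.60 and 4.33, a difference of 1.25 (adjusted p = 0.00821, 0.019 with the replicate block). Each of these 4 genes was higher in all sh-B7-H3 (2) libraries than in all sh-B7-H3 (1) libraries. HAVCR1 and MMP7 each passed in 14 of 14 alternatives, VCAM1 in 12 of 15 and TNFAIP3 in 14 of 15. Without sh-B7-H3 (2) replicate 1 the differences were 6.26 for HAVCR1, 3.20 for MMP7, 0.99 for VCAM1 and 1.32 for TNFAIP3, and all 4 passed. Smaller positive differences passed for ITGB4 (0.65, adjusted p = 0.0135, 0.0156 with the replicate block), LTBP2 (0.73, adjusted p = 0.0245, 0.0229 with the replicate block), RIPK3 (0.59, adjusted p = 0.046, 0.0224 with the replicate block), ESRP1 (0.53, adjusted p = 0.0496, 0.0196 with the replicate block) and HSPA1B (0.50, adjusted p = 0.0493, 0.0193 with the replicate block). These 5 passed in 10 of 15, 8 of 15, 6 of 15, 6 of 15 and 7 of 15 alternatives in that order, and each was lost with replicates 2 and 3 averaged. ESRP1 (adjusted p = 0.0547) and HSPA1B (adjusted p = 0.055) were also lost without sh-B7-H3 (2) replicate 1.

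In the other direction, IGFBP2 was at 50.1, 75.2 and 88.9 with sh-B7-H3 (1) against 13.0, 13.6 and 13.1 with sh-B7-H3 (2), a difference of -2.31 (adjusted p = 0.00211, 0.00857 with the replicate block). MYL9 was at 24.4, 48.9 and 45.5, a difference of -1.86 (adjusted p = 0.00984, 0.0161 with the replicate block). DKK3 was at 10.99, 15.6 and 15.6, a difference of -1.59 (adjusted p = 0.004, 0.00605 with the replicate block), and MAOB was at 12.9, 17.7 and 14.97, a difference of -1.34 (adjusted p = 0.00611, 0.00605 with the replicate block). GSTA4 and NQO1 differed by -1.06 (adjusted p = 0.0084, 0.0109 with the replicate block) and -0.93 (adjusted p = 0.0167, 0.0172 with the replicate block). LAYN, EGLN3 and SCG5 differed by -0.79 (adjusted p = 0.0257, 0.0172 with the replicate block), -1.195 (adjusted p = 0.0445, 0.0156 with the replicate block) and -0.56 (adjusted p = 0.0428, 0.0314 with the replicate block). IGFBP2, DKK3 and MAOB passed in all 15 alternatives, GSTA4 in 14 of 15 and MYL9 in 12 of 15, while NQO1 and LAYN each passed in 9 of 15, EGLN3 in 7 of 15 and SCG5 in 6 of 15, and these last 4 were lost with replicates 2 and 3 averaged. Without sh-B7-H3 (2) replicate 1 none of these calls was lost, and EGLN3 gave -0.93 (adjusted p = 0.018). For IGFBP2 the 3 sh-B7-H3 (1) libraries overlapped the sh-NC libraries, at 54.3, 99.6 and 64.2. S100A4 and APCDD1, which were among the largest decreases against sh-NC, did not pass the direct test, at -0.80 (adjusted p = 0.217, 0.155 with the replicate block) and -0.26 (adjusted p = 0.456, 0.26 with the replicate block).

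The block changed further calls. Of the genes chosen for naming, 29 passed with the replicate block alone, 14 higher and 15 lower in (2). With the log2 difference and the adjusted p of limma with the block, the larger ones higher in (2) were CXCL2 (1.69, 0.00941), CCL8 (1.14, 0.0196), UMOD (1.08, 0.0494), ICAM1 (1.00, 0.0224) and KRT14 (0.72, 0.0205). Those lower in (2) included ADM (-0.93, 0.0273), IGF1 (-0.86, 0.0289), ENO1 (-0.79, 0.0196), NDRG1 (-0.79, 0.0466), SPARC (-0.77, 0.0193), CAT (-0.70, 0.0196), VEGFA (-0.60, 0.0118), SLC2A1 (-0.52, 0.022) and TGTP2 (-0.51, 0.0489). H2-AB1, EPCAM, OAS2, GRHL2, LAMA3, CTSB and RRM2 were higher and H2-Q2, VIM, GPI1 and PGAM1 lower by less than 0.5.

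**Figure D5:**
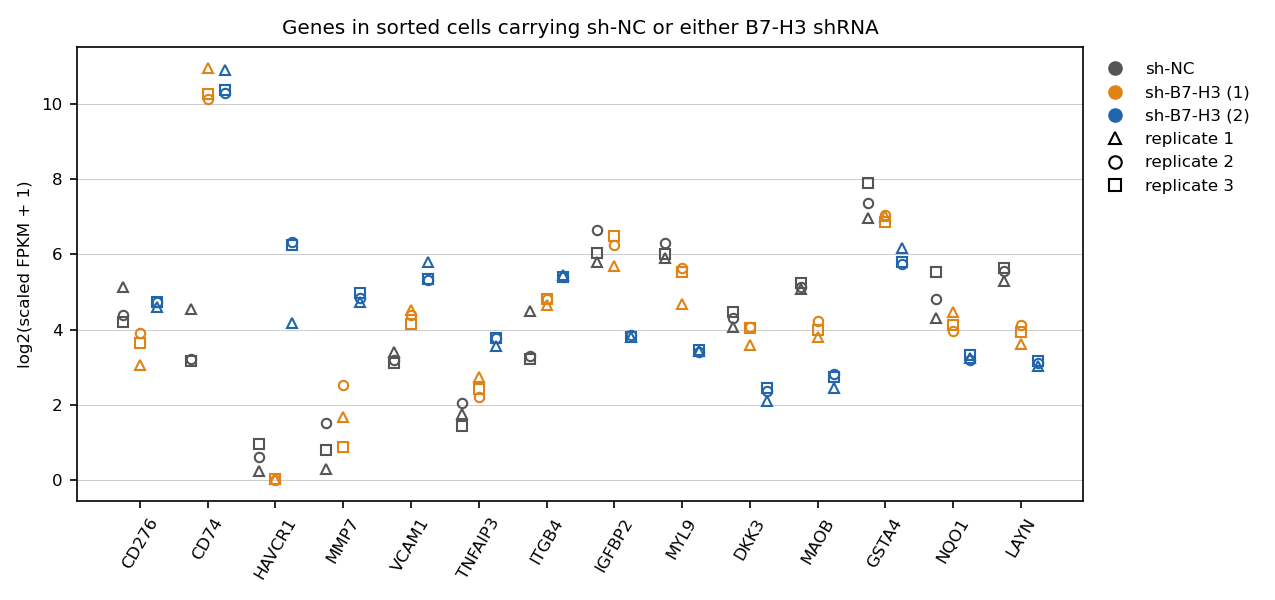
Log2(scaled FPKM + 1) per library of 14 genes in sorted cells labelled sh-NC (grey), sh-B7-H3 (1) (orange) and sh-B7-H3 (2) (blue), with replicates as symbols. CD74 covers 1114 to 1988 scaled FPKM with sh-B7-H3 (1) and 1253 to 1917 with sh-B7-H3 (2), HAVCR1 and MMP7 are higher with sh-B7-H3 (2) than in all libraries of the other groups, and IGFBP2 and DKK3 are lower.

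The 10 genes with the widest log2 gap between replicate 1 and the higher of replicates 2 and 3, at 5 scaled FPKM or more in replicate 1, were MIR677, MIR130C, LYZ2, C1QA, C1QB, IL1B, C1QC, CD52, TYROBP and FCER1G. Gaps ran from 9.73 for MIR677, a short RNA listed at 848 in replicate 1, at 0 in replicates 2 and 3 and at 494 in sh-NC replicate 3, to 4.95 for FCER1G. IL1B, a cytokine of myeloid cells, had 77.6, 0.952 and 1.18 with sh-B7-H3 (2) and at most 0.0959 with sh-NC. Of these 10 genes 7 were tested and 0 passed in the limma fit with 6 libraries or in that without replicate 1, with 0 and 3 at an unadjusted p under 0.05. For LYZ2 the log2 fold change was 1.32 (standard error 1.80, adjusted p = 0.67) and -1.14 without replicate 1 (adjusted p = 0.0743), so its sign turned when replicate 1 was left out.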

How the data were processed

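RNA-seq was compared between 3 libraries of sorted cells labelled sh-B7-H3 (2) and 3 labelled sh-NC, out of 15, grouped by their labels. The authors deposited 1 table of FPKM for the whole series, made with the VIPER pipeline from single-end reads on mm10 per the labels. The aligner and annotation are not given in the sources used here, and the kit is named as KAPA mRNA HyperPrep in the methods and Illumina Stranded mRNA Prep in the labels. A deposited log2 table holds log2(FPKM + 1) of 999 genes, with a largest difference of 8.91e-08 from the FPKM table, and was not used. Read totals, counting errors and the treatment of multi-mapped reads are unknown.

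Of 24917 entries, 26 with date-like names were left out. Each library was scaled by its median ratio to a reference profile, taken over the 9872 genes that reached 1 FPKM throughout. Genes with at least 1 scaled FPKM in at least 3 of the libraries fitted were tested on log2(scaled FPKM + 1), which understates changes of low genes, with limma 3.58.1 (trend, R 4.3.3) and Benjamini-Hochberg adjustment over all tested genes at 0.05. The fit was repeated without sh-B7-H3 (2) replicate 1. CD276 alone was also tested with an exact two-sided permutation test (scipy 1.17.1). The script was tested on simulated data. Where nothing says that libraries came from separate animals, p-values measure the spread between these libraries.

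Named genes were CD276, the 12 largest increases and 12 largest decreases among held genes with no overlap and a mean of at least 5 scaled FPKM in the higher group, up to 5 held members of each list, members needed to say which did not pass, and 10 genes that set replicate 1 apart. Some of these genes are not reported here. The members, the 30 gene lists and the 13 marker lists were chosen with earlier results of these data known. Same-numbered libraries of sh-B7-H3 (2) and sh-B7-H3 (1) deviated together (Pearson r of deviations from group means 0.317, 0.342 and 0.333), so the number was taken to pair them, as a hint from the data, and the fit with the replicate block is printed beside that comparison. Alternatives covered scaling, pseudocount, filter, weights, the block, 9 libraries in 1 fit and leaving out each library. Averaging replicates 2 and 3, and the scalings and left-out controls of the fit without replicate 1, were added after seeing the data. Promoter windows are from RefSeq (GRCm38.p6), matched by symbol for 8837 of 11243 tested genes.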

Additional observations from a re-analysis of the deposited data

Results flagged for a closer look

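8 of the 24 genes with the largest changes against sh-NC also differed between the shRNAs in the direct limma fit, each with 3 libraries per group. GPR141, also among the 24, was below the filter of that fit and was not tested in it. Over all tested genes 3.4% differed in that fit. The 24 genes were chosen by the same sh-B7-H3 (2) libraries that the direct fit used, so the choice itself favours a difference. The log2 difference, sh-B7-H3 (2) minus sh-B7-H3 (1), was 5.56 for HAVCR1, 3.14 for MMP7, -1.86 for MYL9, -1.34 for MAOB and -2.31 for IGFBP2. It was -0.79 for LAYN and -0.56 for SCG5. RPS27 gave -6.95, where reads of its near-identical copy RPS27RT are uncertain, as described above. Adjusted p stayed under 0.05 in all 14 alternatives tried for HAVCR1 and for MMP7, in all 15 for MAOB and IGFBP2, in 12 of 15 for MYL9, 11 for RPS27, 9 for LAYN and 6 for SCG5. HAVCR1 reached the filter of the direct fit only through sh-B7-H3 (2), so its calls there were in part fixed by it.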

How the results depend on the processing

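The count of 2150 genes that differed from sh-NC was 911 with a log2 fold change above 1 in size as well, 1395 with the replicate block and 1361 with replicates 2 and 3 averaged, and leaving out 1 library gave 1284 to 3650. It was 1609 to 2719 under the other scalings, filters, pseudocount and weights and with all 9 sorted libraries in 1 fit. Genes lower with sh-B7-H3 (2) numbered 837, or 443 with the replicate block, 440 with the average, 325 with values as deposited and 399 to 1561 without 1 library, and genes higher numbered 1313, or 885 to 2089 without 1 library. Without replicate 1, 1727 genes passed, and 969 (without sh-NC replicate 2) to 4502 (without sh-NC replicate 1) with 1 control left out as well, from 745 to 2515 higher and from 224 to 1987 lower. There the lower genes numbered 606, or 926 with quantile normalization and 293 with values as deposited. The numbers did not pair the sh-B7-H3 (2) and sh-NC libraries, whose same-numbered deviations correlated at -0.217, 0.00864 and -0.0136. Replicate 1 of sh-B7-H3 (2) was closest to number 3, not to number 1.

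The 382 genes that differed between the shRNAs became 240 with all 9 sorted libraries in 1 fit, 119 with a log2 difference above 1 in size, 137 with no filter, 1864 with the replicate block, 1978 with sample quality weights, 70 with the average and 56 to 952 without 1 library. Genes higher in (2), 184 at first, numbered 71, 849, 1046 and 34 with no filter, block, weights and average, and 27 to 531 without 1 library. Genes lower in (2), 198 at first, numbered 115 with 9 libraries, then 66, 1015, 932 and 36, and 29 to 421 without 1 library. The weights did not fully converge. For CD276 against sh-NC the log2 fold change ran from -0.071 without sh-NC replicate 3 to 0.40 without sh-NC replicate 1, the latter past the threshold. The causes were not tested. Of 1882 pairs of a named gene and an alternative 1807 kept their call, 75 lost significance and 0 changed direction. The 127 genes in these pairs were chosen as held, so their 127 pairs with the fit without sh-B7-H3 (2) replicate 1 were fixed by that choice. Leaving out 1 library ended the calls of C3, C4B, CCL8, CCNB2, CTSB, EIF4EBP1, GPNMB, H2-Q10, IDI1, INHBA, NDRG1 and STAT2 (sh-NC replicate 2), of 12 genes, among them ACTA2 and HSPA1B (sh-B7-H3 (2) replicate 3), of 9, among them NEU1 (sh-B7-H3 (2) replicate 2), of C3, C4B, CCNB2, GPNMB and INHBA (sh-NC replicate 3), and of CCL8 and GPNMB (sh-NC replicate 1). The replicate block ended those of C3, C4B, CCL8, CCNB2, EIF4EBP1, GPNMB, HSPA1B and IDI1, the weights those of CCL8, GPNMB, H2-Q1, H2-Q10, INHBA, NDRG1 and RPS27, no filter those of C3, C4B, CCL8, GPNMB and INHBA, quantile normalization those of C4B, GPNMB and INHBA, values as deposited those of CCNB2, EIF4EBP1 and IDI1, and the average those of C3, C4B, CCNB2, CTSB, EIF4EBP1, HSPA1B, IDI1, NEU1 and STAT2. Of 20 named genes that differed between the shRNAs, 14 lost the call without sh-B7-H3 (1) replicate 3, 13 without sh-B7-H3 (2) replicate 3, 12 with no filter, 10 with the average or without sh-B7-H3 (2) replicate 2, 9 without sh-B7-H3 (1) replicate 2, and 0 to 7 under each other alternative. Of 450 pairs of a list and an alternative 398 kept the median within the spread between replicates and 52 moved. Without read totals, the depth limit of low genes is unknown.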
